A study of Mus musculus with 24 samples.

Results

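The mouse PRAME-like genes, taken as every gene of the deposited count tables whose symbol begins with Prame, comprised 15 of 55291 genes. They were followed in 12 total RNA-seq libraries of mouse embryos, 2 for each of 6 groups. Zygotes of B6D2F1 parents, a cross of C57BL/6 and DBA/2 mice (a strain tag in the labels reads BDF2), had been injected in the male pronucleus with 20 µM antisense oligonucleotides (ASOs). An ASO is a short synthetic nucleic acid that binds a matching transcript and brings about its cleavage. In the MERVL-KD groups a mixture of 3 ASOs was directed at MERVL, an endogenous retrovirus that is transcribed in 2-cell embryos. The control groups received a scrambled ASO, so that all 6 groups carried an injection. RNA was collected from 30 embryos per library after removal of the zona pellucida, at the 2-cell stage (1.5 days post coitum in the labels) and at the 4-cell and 8-cell stages (both 2.5 days post coitum). Each library pools whole embryos, so fewer cells with a transcript and less transcript per cell cannot be told apart. Whether replicates came from separate matings is not given in the sources used here, and p-values measure the spread between these samples.

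PRAME-like proteins are built largely of leucine-rich repeats and are named after PRAME, an antigen first found in human melanoma. Several act as substrate receptors of cullin-2 ubiquitin ligases, which they join through elongin B and elongin C. In mouse the family has expanded into clusters that are transcribed mainly in the germ line and in the early embryo. PRAMEL7 is known to promote the naive pluripotent state and to direct the breakdown of UHRF1, a protein that maintains DNA methylation.

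The members lay on 3 chromosomes of build GRCm38. Pramel7 (chr2:87489087-87497093, minus strand) and Pramel6 (chr2:87506565-87510872, plus strand) were neighbours 9.47 kb apart. On chromosome 4, 10 members spanned 1014 kb in the order Pramel1, Pramef8, Pramef6, Pramef25, Pramef17, Pramel4, Pramel5, Pramef20, Pramef12 and Pramef12os. Pramef12os runs on the opposite strand within the span of Pramef12 and shares 0 exonic bases with it. Pramel, annotated as a pseudogene, Pramel3 and Prame lay on chromosome X. Another 22 genes that RefSeq names as Prame genes stood in the count tables under other symbols. They are not members and serve here as the comparison.

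The members differed widely in sequence. Among the 13 with a coding sequence, identity between coding sequences ranged from 55.5% to 93.6% over 78 pairs, with a median of 62.2%. The closest pair was Pramel4 and Pramel5 (93.6%), and Pramef6 was next to both, at 87.6% to Pramel4 and 87.4% to Pramel5. Pramel7 was closest to Pramef17 on chromosome 4 (80.9%) and only 60.7% identical to Pramel6, its neighbour.

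The 250 bases before the RefSeq start were available for 13 members. Of the closest relatives, Pramel4, Pramel5 and Pramel7 rose between the 2-cell and 4-cell stages of control embryos, Pramef6 fell and Pramef17 did not pass the test. Their 5 promoters are shown. They were taken from the RefSeq table for build GRCm38.p6 and run 5′ to 3′ towards the gene, at chr4:144058875-144059124 (plus strand) for Pramel4, chr4:144280467-144280716 (minus strand) for Pramel5, chr4:143900381-143900630 (minus strand) for Pramef6, chr2:87492419-87492668 (minus strand) for Pramel7 and chr4:143994370-143994619 (minus strand) for Pramef17. Capitals mark matches, on either strand, to CCAAT, to TCAAGGNCA (a motif of NR5A receptors) and to TAATCC (a core of homeodomain motifs such as that of OBOX factors). The start used for Pramel7 lies inside its longer gene span in the count annotation.
Pramel4: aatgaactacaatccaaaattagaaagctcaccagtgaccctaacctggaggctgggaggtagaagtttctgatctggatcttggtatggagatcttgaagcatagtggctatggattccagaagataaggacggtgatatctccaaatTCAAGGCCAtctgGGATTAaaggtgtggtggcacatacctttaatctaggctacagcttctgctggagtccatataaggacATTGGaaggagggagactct
Pramel5: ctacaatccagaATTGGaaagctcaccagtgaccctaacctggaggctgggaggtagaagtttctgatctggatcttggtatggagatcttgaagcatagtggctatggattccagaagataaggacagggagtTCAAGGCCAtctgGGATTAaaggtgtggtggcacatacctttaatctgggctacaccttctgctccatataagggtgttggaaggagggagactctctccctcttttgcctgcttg
Pramef6: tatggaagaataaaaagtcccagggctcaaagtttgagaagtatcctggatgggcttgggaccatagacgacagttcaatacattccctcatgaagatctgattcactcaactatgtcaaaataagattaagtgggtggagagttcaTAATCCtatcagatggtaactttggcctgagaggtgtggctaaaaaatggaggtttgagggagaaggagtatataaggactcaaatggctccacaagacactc
Pramel7: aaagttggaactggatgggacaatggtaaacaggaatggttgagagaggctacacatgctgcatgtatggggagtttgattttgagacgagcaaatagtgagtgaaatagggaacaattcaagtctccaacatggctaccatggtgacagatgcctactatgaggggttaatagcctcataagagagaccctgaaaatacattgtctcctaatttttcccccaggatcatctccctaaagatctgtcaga
Pramef17: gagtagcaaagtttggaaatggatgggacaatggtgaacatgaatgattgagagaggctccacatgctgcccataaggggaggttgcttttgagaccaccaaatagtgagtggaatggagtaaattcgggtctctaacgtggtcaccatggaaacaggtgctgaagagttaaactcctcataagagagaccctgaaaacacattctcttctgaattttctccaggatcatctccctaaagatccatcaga

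The promoters of Pramel4 and Pramel5 were 88% identical over the window, those of Pramel7 and Pramef17 were 81.2% identical, and the median over 78 pairs was 50.8%. TCAAGGNCA was found in 2 of the 13 member promoters, those of Pramel4 and Pramel5, and in 1.39% of 32841 mouse promoters of the same length. TAATCC was found in 4 (Pramef6, Pramel4, Pramel5 and Prame), against 6.25% of all promoters. CCAAT was found in 7, against 33.9% of all promoters, GGGCGG in 1, against 32.7%, and TATAAA in 1, against 12.4%. The palindromic DUX motif and TTCNNNGAA, a motif of STAT factors, were found in 0 member promoters and in 0.0304% and 7.02% of all promoters. A match describes the letters alone, and the close relatives share most of their sequence. The promoters had a median GC content of 44%, against 52.4% for all promoters.

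The same windows were aligned with the first 400 bases of the MERVL consensus that accompanied the study, a comparison made after the promoters had been read. Pramel4 aligned over 266 columns with 206 identical bases (77.4%), and Pramel5 over 260 columns with 194 (74.6%), both in the sense orientation. No other member promoter aligned over at least 100 bases. Of 27018 genes with a promoter in the table, 37 (0.137%) had such a match. One of them was B020004J07Rik, a PRAME-like gene under another symbol, with 239 identical bases of 268 (89.2%).

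The annotated copies of some members are so alike that a 150-base read cannot be placed, and the authors kept only reads with a single place in the genome. For 10 members every 150-base window of the exons occurred once in the genome. The share was 95.7% for Pramef25, 92% for Pramef6, 51.1% for Pramef17 (the rest shared with Gm13128), 50.3% for Pramel3 (shared with 4 genes on chromosome X) and 15.8% for Pramel4, of whose 1893 windows 1593 also lay in Gm13102 on chromosome 4. Levels of Pramel4, Pramel3 and Pramef17 are therefore uncertain and rest on a part of each transcript. Whether the counting used strand is not given in the sources used here, so Pramef12 and Pramef12os are uncertain as well.

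Totals ranged from 28167085 to 41482526 counts per library. Replicates differed by more than sampling noise (chi-square per degree of freedom 10.4 to 17.7). MERVL-int, the internal part of the targeted element, took 6.33% and 6.57% of the counts in control 2-cell embryos and 0.157% and 0.143% in MERVL-KD 2-cell embryos, and was lower in MERVL-KD libraries at each later stage. Summed 2-cell markers (6 of 6 present, among them Zscan4c and Zfp352) lay at 387 to 502 CPM (scaled by total counts alone) in control and 295 to 375 in MERVL-KD 2-cell embryos, and at or below 28.4 in all later libraries, so the 2-cell labels stood apart from the rest. The 6 markers of later cleavage and lineage stood at 405 to 409 in control and 313 to 320 in MERVL-KD 8-cell embryos, and at 138 to 139 against 159 to 172 at the 2-cell stage. The TMM scaling used for the levels below divides by a further factor. This factor was larger for the MERVL-KD 2-cell libraries (1.19, 1.16) than for their controls (0.936, 0.88). The higher 2-cell sums of these lineage markers in MERVL-KD thus depend on scaling by total counts, and they were not examined with TMM. Oocyte markers (5 of 6 present) summed to 910 to 1020 in control and 769 to 865 in MERVL-KD 2-cell embryos. Markers of cumulus and granulosa cells, which a collected embryo could carry, summed to 3.25 to 3.44 in control and 6.24 to 7.77 in MERVL-KD 2-cell embryos, with no overlap, and to at most 3.97 later. Of these markers Inha and Fshr were at or under 3 counts in both 2-cell groups. None of these lists was tested for a part in the results below.

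Levels below are given in normalised CPM, that is, counts scaled to a library of 1e+06 after TMM scaling over the 12 libraries, which corrects for differences in RNA composition. Genes are compared with each other only per kilobase of exon. Values are given for replicate 1 and then replicate 2.

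The first question was how the family differed between control embryos of the 2-cell, 4-cell and 8-cell stages. The summed level of the 15 members was 518 and 549 normalised CPM in 2-cell, 842 and 966 in 4-cell and 1119 and 1117 in 8-cell embryos, and its make-up changed. Pramel7 and Pramel6 made up 32.2% and 34% of the sum at the 2-cell stage and 70.4% to 76.1% later. Pramel4 and Pramel5 went from 6.7% and 8.12% to between 14.7% and 22.1%, and the other 11 members from 61.1% and 57.9% to between 7.54% and 12.3%. The 22 genes under other symbols moved the opposite way in sum, from 1538 and 1524 normalised CPM at the 2-cell stage to 293 and 298 at the 4-cell stage.

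**Figure D1:**
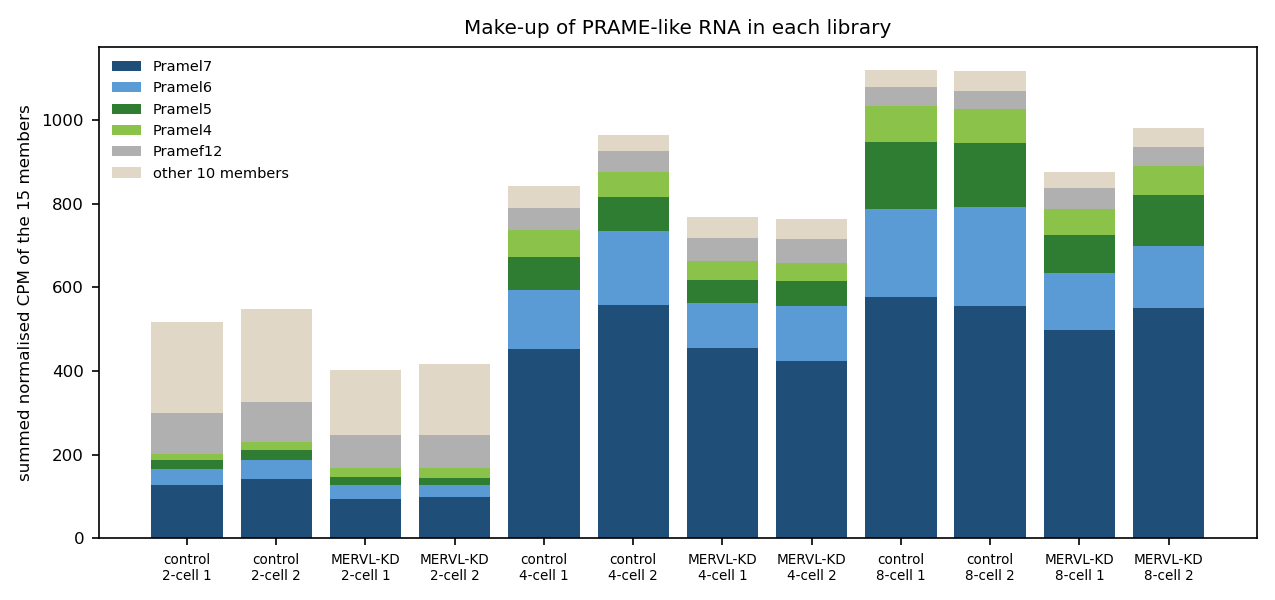
Summed normalised CPM of the 15 members in each of the 12 libraries (bars, by stage and condition, replicates 1 and 2), split by gene. Pramel7 and Pramel6 fill 30.4% to 34% of the bars of 2-cell embryos and 70.4% to 76.1% of the bars of 4-cell and 8-cell embryos.

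In control embryos 4 members rose between the 2-cell and 4-cell stages and 6 fell, by at least 2-fold at an adjusted p under 0.05. These were 10 of the 14 members tested, where 45% of all genes were called (20.7% higher, 24.3% lower) among all genes tested. The median log2 fold change of the members was -1.08, against -0.06 for all genes. From the 4-cell to the 8-cell stage, 0 members passed the 2-fold threshold by edgeR and 1 by DESeq2 (5 had an unadjusted p under 0.05), where 1.56% of all genes were called. Pramef25 was called lower (-2.29) without the second control 4-cell library, and Pramel3 higher (2.30) without the first control 8-cell library.

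Pramel7, whose protein directs the breakdown of UHRF1, was the most abundant member per kilobase at every stage. Its control levels were 127 and 142 normalised CPM in 2-cell, 452 and 558 in 4-cell and 577 and 555 in 8-cell embryos. The 2-cell libraries lay apart from all later ones, while the ranges of the 4-cell and 8-cell libraries overlapped. The log2 rise to the 4-cell stage was 1.91 (SE 0.11, adjusted p = 1.83e-12).

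Pramel6, like Pramel7 a gene of naive pluripotent cells, stood at 39.5 and 44.7 normalised CPM in 2-cell, 142 and 177 in 4-cell and 211 and 238 in 8-cell embryos. Each stage lay above the one before. The first step was 1.92 on the log2 scale (SE 0.13, adjusted p = 3.89e-11) and the second 0.50 (SE 0.12, adjusted p = 0.0204). The second step was under 2-fold, and 3.19% of all genes were higher at that threshold without a fold limit.

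Pramel5 and Pramel4, the closest relatives on chromosome 4, rose with them. Pramel5 stood at 19.7 and 24.5, then 78.3 and 81.4, then 160.2 and 153 normalised CPM, each stage above the last. Its log2 change was 1.85 (SE 0.14, adjusted p = 1.98e-10) at the first step and 0.97 (SE 0.13, adjusted p = 2.97e-04) at the second. DESeq2 put the second step at 1.02, just past 2-fold, and without the second control 4-cell library edgeR gave 1.00. Pramel4 stood at 15 and 20.1, then 65.2 and 60.6, then 86.9 and 80.9 normalised CPM. Its first step was 1.84 (SE 0.14, adjusted p = 3.28e-10) and its second 0.42 (SE 0.14, adjusted p = 0.0734), with 2-cell libraries well below the rest.

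Pramef6 and Pramef25, both on the minus strand between Pramef8 and Pramef17, fell steeply. Pramef6 stood at 30.1 and 32.6 normalised CPM in 2-cell, 2.36 and 0.521 in 4-cell and 0.435 and 1.47 in 8-cell embryos, a log2 change of -4.40 (SE 0.69, adjusted p = 7.13e-04) at the first step. Pramef25 stood at 63.4 and 57.1, then 8.77 and 2.02, then 1.197 and 2.35 (first step -3.46, SE 0.63, adjusted p = 0.00254). The 2-cell libraries of both genes lay far above all later ones, and the later replicates differed from each other severalfold. Pramef6, 87.6% identical to Pramel4 in its coding sequence, thus moved in the opposite direction to it.

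Pramel1 and Pramef8, the first members of the chromosome 4 cluster, fell less. Pramel1 stood at 40.4 and 42.3, then 14.4 and 15.1, then 19.6 and 12.8 normalised CPM (first step -1.49, SE 0.19, adjusted p = 5.89e-07). Pramef8 stood at 55.7 and 60.2, then 13.8 and 10.04, then 9.98 and 12.4 (first step -2.28, SE 0.20, adjusted p = 2.98e-09). Both were at one level from the 4-cell stage on, with overlapping ranges.

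Pramel3, on chromosome X, stood at 9.02 and 13.0 normalised CPM in 2-cell, 0.624 and 0.903 in 4-cell and 0.218 and 3.69 in 8-cell embryos. Its change of -3.86 on the log2 scale (SE 0.88) had an adjusted p of 0.00384, which became 0.0814 and 0.0601 without the first or the second control 4-cell library. Without the first, Prame was called lower in turn (adjusted p = 0.0162). Pramef20 stood at 4.66 and 3.47, then 1.25 and 2.22, then 1.31 and 1.81 normalised CPM. Its change of -1.23 (SE 0.45) had an adjusted p of 0.0259, which was 0.153 without the first control 2-cell library and 0.212 without the first control 4-cell library.

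Pramef12, a gene known from spermatogonial stem cells, and Pramef17 changed by less than 2-fold at each step. Pramef12 stood at 98.8 and 94.4, then 52.6 and 48.6, then 43.6 and 41.9 normalised CPM, a first step of -0.93 (SE 0.11, adjusted p = 4.07e-07), with 2-cell libraries above the rest. Pramef17 stood at 12.9 and 13.6, then 8.82 and 9.21, then 7.58 and 12.2 (first step -0.55, SE 0.24, adjusted p = 0.0558), with the 8-cell range spanning the 4-cell values. Pramel7 and Pramef17 share 81.2% of the window before their RefSeq starts, and of this pair only Pramel7 passed the test. The window of Pramel7 lies inside its gene span in the count annotation, and 51.1% of the Pramef17 exon windows occur once in the genome. Whether these windows hold the starts used in the embryos was not tested.

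The remaining 3 members were at or near the limit of detection. Prame itself, the namesake of the family, had 22 and 34 counts in control 2-cell libraries, 16 and 0 in control 4-cell libraries and 0 in each control 8-cell library. Set against a floor of 3 counts over the 8-cell group, its 2-cell level was 15.8-fold higher in control and 16.5-fold higher in MERVL-KD embryos. These ratios are not lower bounds, because both mates were mostly counted and the spread between replicates is left out. Pramef12os lay between 0.22 and 1.21 normalised CPM in all libraries. Pramel had 4 counts in 1 control 8-cell library and 0 in the other 11, and was tested in no comparison.

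**Figure D2:**
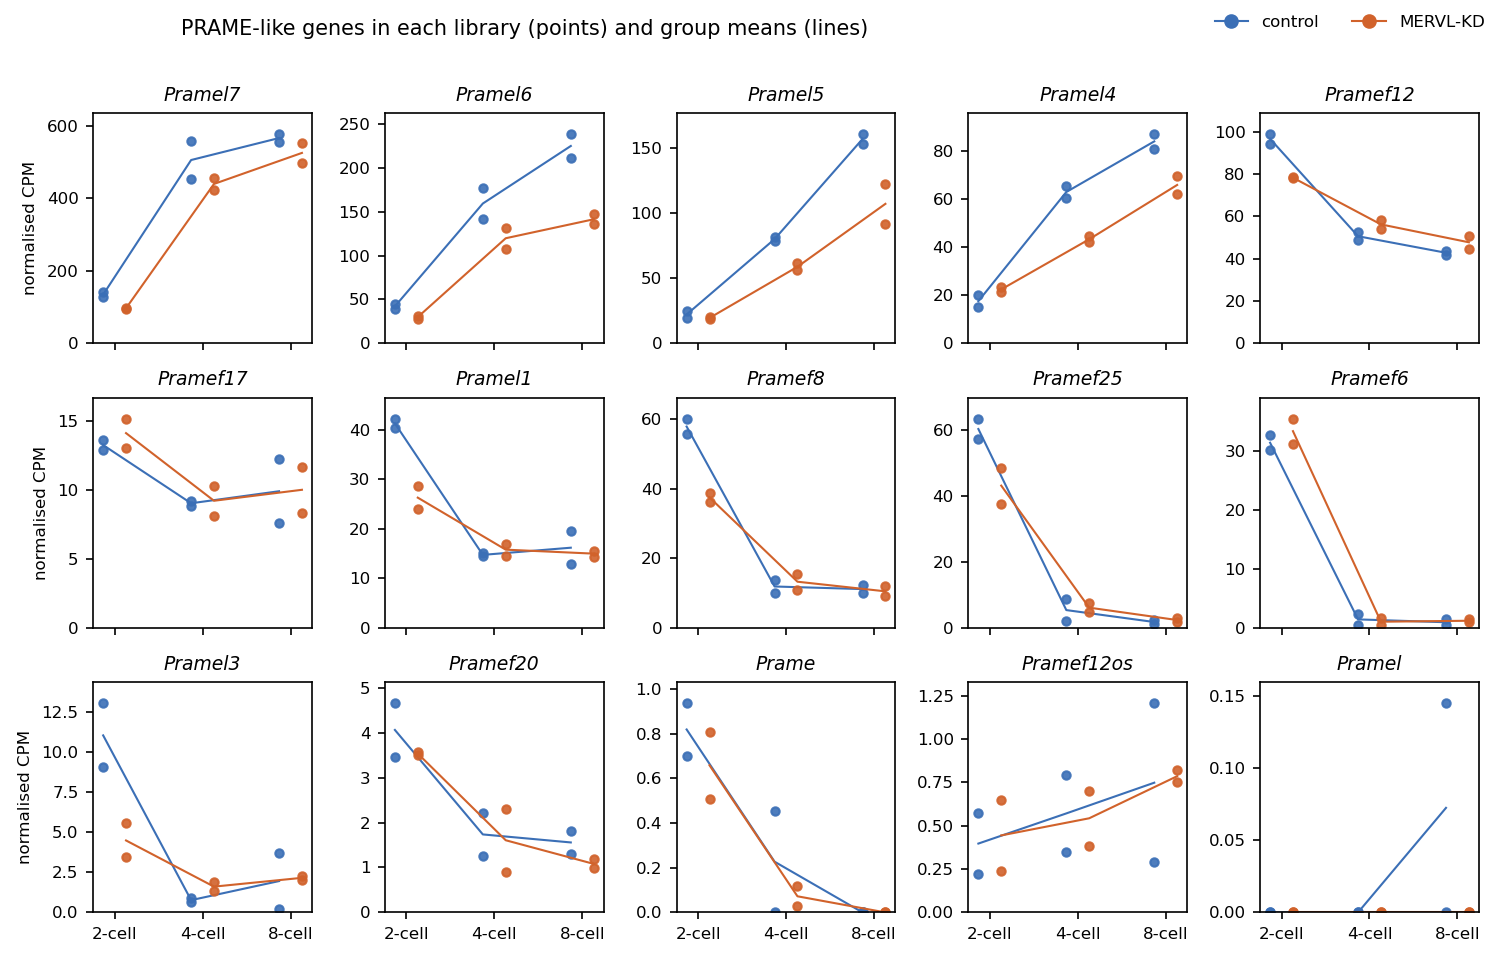
Level of each of the 15 members in normalised CPM (vertical axes, linear, each from 0) at the 2-cell, 4-cell and 8-cell stages in control and MERVL-KD embryos; points are libraries (n = 2 per group) and lines join group means. In control embryos Pramel7, Pramel6, Pramel5 and Pramel4 rise from the 2-cell to the 4-cell stage, and Pramel1, Pramef8, Pramef25, Pramef6, Pramel3 and Pramef20 fall.

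Per kilobase of exon, Pramel7 led in control 2-cell embryos (63.0 normalised CPM per kilobase), followed by Pramef12 (37.5) and Pramef25 (35.8), whose ranges overlapped, and by Pramel6 (20.2). At the 4-cell stage the order was Pramel7 (237), Pramel6 (76.4), Pramel5 (34.7), Pramel4 (25.3) and Pramef12 (19.7). It was the same at the 8-cell stage, at 265, 108, 68.1, 33.7 and 16.6. No neighbours in these later orders overlapped in range down to Pramef12. These values divide by the full exon length, although only 15.8% of the Pramel4 windows occur once in the genome. The level of Pramel4 per kilobase is therefore likely too low, and its place in each order is uncertain.

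In gene order along chromosome 4, Pramel1, Pramef8, Pramef6 and Pramef25 fell, Pramel4 and Pramel5 rose, and Pramef20 fell. Of the 22 genes under other symbols 21 were tested, of which 17 fell and 1, Gm3139 on chromosome 5 (log2 change 1.06), rose. Their median was -3.03. Of all genes tested, 24.3% fell and 20.7% rose at the same thresholds.

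**Figure D3:**
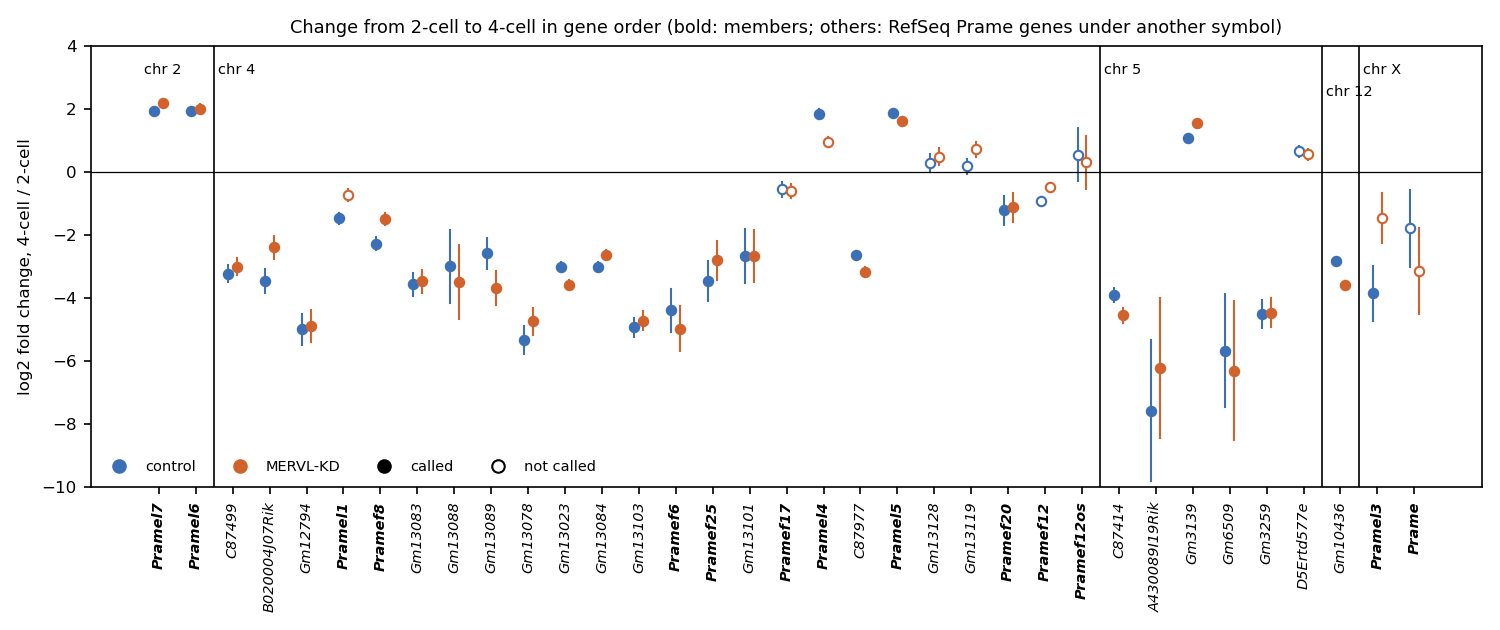
Log2 fold change from the 2-cell to the 4-cell stage (points, bars ± 1 SE) in control and MERVL-KD embryos for members (bold) and for PRAME-like genes under other symbols, in gene order and not to scale; filled points passed an adjusted p under 0.05 with at least 2-fold change. Pramel7 and Pramel6, the only genes shown on chromosome 2, stand above 0. On chromosome 4 Pramel4 and Pramel5 stand above 0 among many neighbours below 0, with some others above 0, such as Gm13128 (0.28 in control).

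In MERVL-KD embryos the change from the 2-cell to the 4-cell stage called 7 members, where 44.1% of all genes were called (21.2% higher, 23% lower). Pramel7 (log2 change 2.18), Pramel6 (2.00) and Pramel5 (1.59) rose, and Pramef8 (-1.499), Pramef6 (-4.98), Pramef25 (-2.81) and Pramef20 (-1.13) fell. Pramel4 was higher by 0.95 (SE 0.14, adjusted p = 4.99e-06), under 2-fold. The call for Pramef25 was lost without the second MERVL-KD 4-cell library (adjusted p = 0.0704), and that for Pramef20 without the first control 2-cell library, either MERVL-KD 2-cell library or the second MERVL-KD 4-cell library (adjusted p 0.052 to 0.319). Pramel4 passed 2-fold without the second MERVL-KD 2-cell library (1.03), and Pramel3 was called lower without either control 8-cell library (-1.53). From the 4-cell to the 8-cell stage 0 members were called by edgeR and 0 by DESeq2 (3 had an unadjusted p under 0.05), where 1.64% of all genes were called. Pramel4 (0.61, SE 0.14, adjusted p = 0.0138) and Pramel5 (0.87, SE 0.13, adjusted p = 7.84e-04) were higher at any fold, as were 2.27% of all genes. Pramel5 passed 2-fold without the first MERVL-KD 8-cell library (1.06), and Pramef25 was called lower (-1.36, adjusted p 0.0111 and 0.0114) without either control 4-cell library.

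The second question was what the loss of MERVL RNA did to these genes at each stage. In 2-cell embryos 6 of the 14 members tested were lower in MERVL-KD than in control at an adjusted p under 0.05, of which only Pramel3 reached 2-fold, and 0 were higher. Of all genes, 6.61% were called with the 2-fold limit, and 7.39% were lower at any fold. The median log2 fold change was -0.22 for the members and 0.01 for all genes. The members summed to 518 and 549 normalised CPM in control and 404 and 417 in MERVL-KD 2-cell embryos, to 842 and 966 against 769 and 764 at the 4-cell stage, and to 1119 and 1117 against 877 and 983 at the 8-cell stage. The sums did not overlap at any stage, but scaled by total counts alone the 2-cell sums were 484 and 483 against 478 and 484 CPM and overlapped.

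Pramel3 stood at 9.02 and 13.0 normalised CPM in control and 5.54 and 3.42 in MERVL-KD 2-cell embryos, with no overlap (log2 fold change -1.21, SE 0.26, adjusted p = 0.00526). It was under 2-fold without the second control library (-0.94) or without the second MERVL-KD library (-0.92), and its adjusted p was 0.404 when all 12 libraries entered one fit. Across the 12 libraries its log2 level was most like those of Gm49187 (Pearson r = 0.933), Usp26 (0.932) and 3110056K07Rik (0.928), which is a description over samples that share stages.

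The 5 other members that were lower showed smaller differences. Pramef8 stood at 55.7 and 60.2 in control against 36.2 and 38.9 normalised CPM in MERVL-KD (-0.54, SE 0.11, adjusted p = 0.0036). Pramel1 stood at 40.4 and 42.3 against 28.6 and 24.1 (-0.57, SE 0.13, adjusted p = 0.00842). The ranges did not overlap for either of these neighbours. Pramel7 stood at 127 and 142 against 95.1 and 98.4 (-0.39, SE 0.09, adjusted p = 0.00885). Pramel6 stood at 39.5 and 44.7 against 31.6 and 28.2 (-0.41, SE 0.13, adjusted p = 0.0419). Both genes of the chromosome 2 pair were thus lower to a like degree. Pramef25 stood at 63.4 and 57.1 against 37.7 and 48.5 (-0.40, SE 0.13, adjusted p = 0.0498).

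These 5 smaller differences depended on the scaling, and 1 on the libraries fitted. With all 12 libraries in one fit the adjusted p of Pramef25 was 0.741 (log2 fold change -0.48), and those of the other 4 ran from 0.00483 to 0.0441. TMM left the median of all genes at 0.01, whereas scaling by library size alone put it at 0.30. The 5 genes then lay at -0.10 to -0.28, with adjusted p from 0.107 to 0.561, and Pramel3 at -0.91 (adjusted p = 0.0168). A change of scaling shifts all genes by nearly the same amount, so the place of these 5 genes below the median was kept by construction. It is no separate support for a difference. Repeat families took 23.6% and 25.2% of the counts in control and 16.5% and 15.8% in MERVL-KD 2-cell embryos, and the part of this in the scaling was not tested.

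Pramel4 went the other way in 2-cell embryos, at 15 and 20.1 normalised CPM in control against 21.4 and 23.4 in MERVL-KD (0.44, SE 0.16, adjusted p = 0.0892). By library size alone it was 0.73 (adjusted p = 0.00346), and Pramef6 was 0.46 (adjusted p = 0.0155, against 0.17 and 0.438 with TMM). Pramel5 stood at 19.7 and 24.5 against 20.2 and 18.7 (-0.10, 95% confidence interval -0.42 to 0.22), and by library size alone its sign turned to 0.19. Pramef12 stood at 98.8 and 94.4 against 78.6 and 77.9 (-0.22, adjusted p = 0.149), and its sign also turned, to 0.07. Pramef6 (31.2 and 35.4 in MERVL-KD), Pramef17 (13.1 and 15.1) and Pramef20 (3.57 and 3.51) did not pass the test.

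In 4-cell embryos 2 of 13 members tested were lower at an adjusted p under 0.05 and 0 reached 2-fold, by edgeR or by DESeq2 (3 had an unadjusted p under 0.05), where 4.54% of all genes were called and 5.84% were lower at any fold. They were the closely related pair. Pramel4 stood at 65.2 and 60.6 normalised CPM in control against 44.5 and 42 in MERVL-KD (-0.54, SE 0.12, adjusted p = 0.0147). Pramel5 stood at 78.3 and 81.4 against 55.8 and 61.5 (-0.44, SE 0.11, adjusted p = 0.0271). The groups of both genes did not overlap, and by library size alone the adjusted p of Pramel5 was 0.0586. Pramel6 stood at 142 and 177 against 107.5 and 132 (-0.41, SE 0.13, adjusted p = 0.0694), and passed at any fold by DESeq2 (adjusted p = 0.0292) and with all 12 libraries in one fit (0.0382).

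Pramel7 (456 and 423 normalised CPM in MERVL-KD) lay at -0.20 (95% confidence interval -0.43 to 0.04) in 4-cell embryos, and the groups overlapped. None of the other members passed the test at the 4-cell stage. Pramel1 stood at 17.1 and 14.6 in MERVL-KD, Pramef8 at 11 and 15.6, and Pramef12 at 53.9 and 58.4. Pramef17 stood at 10.3 and 8.09, Pramef25 at 7.53 and 4.73, Pramef6 at 1.59 and 0.497, Pramef20 at 2.31 and 0.906 and Pramel3 at 1.90 and 1.32. Pramef25, whose control replicates were 8.77 and 2.02, became higher in MERVL-KD (1.61, adjusted p = 0.00486) only without the first control library.

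In 8-cell embryos 2 of 13 members tested were lower at an adjusted p under 0.05 and 0 reached 2-fold, by edgeR or by DESeq2 (3 had an unadjusted p under 0.05), where 1.7% of all genes were called and 3.56% were lower at any fold. Pramel6 stood at 211 and 238 normalised CPM in control against 136 and 147 in MERVL-KD (-0.66, SE 0.09, adjusted p = 0.00184). Pramel5 stood at 160.2 and 153 against 91.7 and 122 (-0.54, SE 0.12, adjusted p = 0.0301). Neither pair of groups overlapped, and both differences passed the test by library size alone (adjusted p 0.00764 and 0.0498). The 8-cell lineage markers given above were lower in the same MERVL-KD libraries, and their part in this was not tested.

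Pramel4 stood at 86.9 and 80.9 against 62.1 and 69.5 in 8-cell embryos (-0.34, SE 0.11, adjusted p = 0.0983). Pramel7 stood at 577 and 555 against 498 and 552 (-0.10, 95% confidence interval -0.28 to 0.08). Pramel7, the more abundant of the chromosome 2 pair, thus did not pass the test where Pramel6 did, and the difference between them was not tested. The other MERVL-KD levels were 14.4 and 15.6 for Pramel1, 9.06 and 12 for Pramef8 and 50.7 and 44.8 for Pramef12. They were 8.34 and 11.6 for Pramef17, 1.88 and 2.87 for Pramef25, 0.981 and 1.44 for Pramef6, 0.981 and 1.18 for Pramef20 and 2.28 and 2.03 for Pramel3. Pramel3 had control replicates of 0.218 and 3.69 and was higher in MERVL-KD (3.29, adjusted p = 0.00452) only without the second control library.

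**Figure D4:**
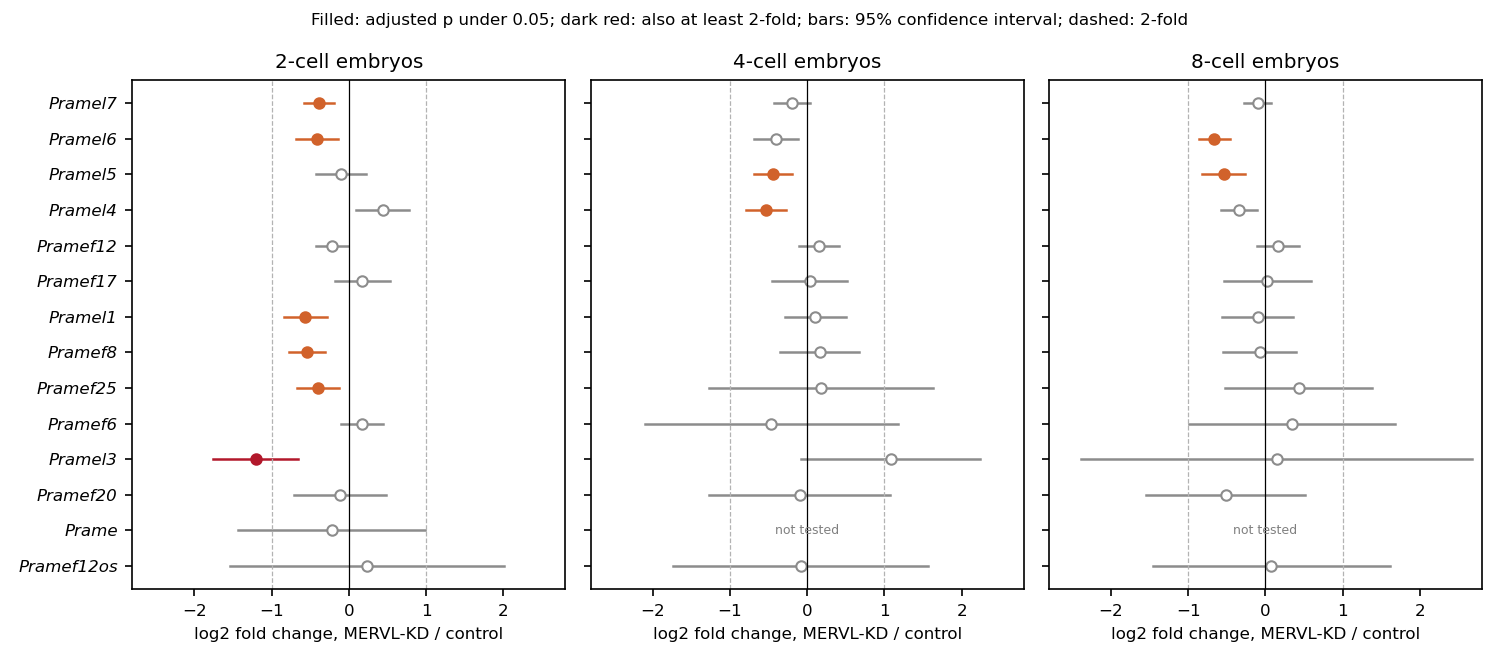
Log2 fold change of MERVL-KD against control (points) with its 95% confidence interval (bars) for each member tested at the 2-cell, 4-cell and 8-cell stages; filled points had an adjusted p under 0.05, dark red also at least 2-fold, and dashed lines mark 2-fold. Only Pramel3 at the 2-cell stage lies past 2-fold with an adjusted p under 0.05.

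Whether the effect of the knockdown differed between stages was tested as an interaction in one fit of the 12 libraries. Between the 2-cell and 4-cell stages it differed for 1 of 14 members, Pramel4, where 4.16% of all genes passed. The effect on Pramel4 fell by 0.89 on the log2 scale (SE 0.20, adjusted p = 0.0114), from above control to below it. The call was lost without the first control 2-cell library (adjusted p = 0.0744). Between the 2-cell and 8-cell stages Pramel4 was again the only one (-0.70, SE 0.20, adjusted p = 0.046), where 4.03% of all genes passed, and 8 of the 12 fits that left out a library lost it (adjusted p 0.0505 to 0.263). It was kept without the second control 2-cell library, either MERVL-KD 4-cell library or the second MERVL-KD 8-cell library, and lost without any of the others. Between the 4-cell and 8-cell stages the count was 0 of 14 by edgeR and 0 by DESeq2, with 0 at an unadjusted p under 0.05, where 0.624% of all genes passed.

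Other members entered the first of these counts when a library was left out. Pramef25 did so without the first control 4-cell library (2.09), Pramef8 without the first MERVL-KD 4-cell library (1.02), and Pramel3 without either control 8-cell library (2.26 in both cases). At the second, Pramel5 did so without the second MERVL-KD 8-cell library (-0.68).

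Because most of the Pramel4 exons also lie in Gm13102, that gene is given beside it. Gm13102 stood at 5.39 and 8.31 normalised CPM in control and 7.08 and 11 in MERVL-KD 2-cell embryos, at 58.1 and 59.4 against 36.4 and 26.3 in 4-cell embryos, and at 67.7 and 47.6 against 62.1 and 62.5 in 8-cell embryos. It thus rose after the 2-cell stage as Pramel4 did, and its control and MERVL-KD levels overlapped at the 2-cell and 8-cell stages. Its difference at the 4-cell stage was -0.90 (SE 0.16, adjusted p = 0.0037), and its effect changed from the 2-cell to the 4-cell stage by -1.30 (SE 0.34, adjusted p = 0.0479).

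Among the PRAME-like genes under other symbols, 10 of 21 tested were lower in MERVL-KD 2-cell embryos at an adjusted p under 0.05 and 0 reached 2-fold by edgeR (13 had an unadjusted p under 0.05). Their median was -0.43. Of all genes, 7.39% were lower at any fold and 6.61% were called with the 2-fold limit. Summed over all genes under other symbols, the 2-cell level was 1538 and 1524 normalised CPM in control against 1004 and 1127 in MERVL-KD. Scaled by total counts alone the sums were closer, at 1439 and 1340 against 1189 and 1309 CPM. How each of these genes fared by library size alone, which put the median of all genes at 0.30, was not examined. B020004J07Rik, whose promoter aligned with the MERVL consensus, stood at 79.8 and 83.0 normalised CPM in control against 44.5 and 53.7 in MERVL-KD (-0.65, SE 0.11, adjusted p = 9.38e-04). Gm13084, without such a match, was lower as well (-0.74). The members with such a match, Pramel4 (0.44) and Pramel5 (-0.10), did not pass the test. A link between the match and the effect of the knockdown was not tested. At the 4-cell stage 4 of 17 genes under other symbols were called, all lower, where 4.54% of all genes were called. They were Gm13023 (-1.09), C87977 (-1.03), C87414 (-1.02) and Gm10436 (-1.21). At the 8-cell stage 0 of 15 reached 2-fold by edgeR (5 had an unadjusted p under 0.05), where 1.7% of all genes were called. Gm13023 (-0.80), Gm3139 (-0.48) and Gm10436 (-0.86) were lower at any fold, as were 3.56% of all genes.

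The members were also placed against exact matches of the targeting ASOs in the genome, of which 1332 were found for 2 of the 3 ASOs. Within 100 kb of such a site lay 5 of the 15 members (7.11% of all genes), all on chromosome 4, where members share a locus and are not independent. Pramef17 was nearest at 15.9 kb, followed by Pramel4 at 47.1 kb, and Pramel7 lay 871 kb away. Among the 5 members nearest to a site, Pramef17 and Pramel4 did not pass the test at the 2-cell stage, while Pramef8, Pramef25 and Pramel1 were lower. The other members lower at that stage lay far from a site, Pramel7 at 871 kb, Pramel6 at 889 kb and Pramel3 at 3197 kb. A link between distance and the effect of the knockdown was not tested.

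A list of 31 partner genes holds the cullin-2 ligase and its other substrate receptors, the DNA methylation machinery and the LIF receptor pathway. It also holds Cul5 and Rnf7 of the cullin-5 ligase, the retinoic acid receptor genes Rara and Rarg, and Ezh2. At the 2-cell stage 3 were higher and 3 lower at an adjusted p under 0.05, that is 6 of 31, where 14.1% of all genes passed at any fold. Zyg11b, a receptor of the same ligase, was the only one past 2-fold (1.06), at 28 and 30.4 normalised CPM in control against 57.1 and 57.9 in MERVL-KD. Fem1a (-0.93), Fem1c (-0.77) and Lrr1 (-0.52), also receptors of cullin-2 ligases, were lower, and Tet1 (0.69), an enzyme that oxidises methylated cytosine, and Rara (0.47), the retinoic acid receptor alpha, were higher.

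At the 4-cell stage 4 partner genes were higher and 6 lower, where 10.8% of all genes passed at any fold, and 2 passed 2-fold. Il6st, the shared signalling subunit of the LIF receptor, stood at 20.8 and 19.2 normalised CPM in control against 8.29 and 7.83 in MERVL-KD (-1.30, SE 0.18, adjusted p = 0.00102). Lifr, its partner subunit, stood at 1.56 and 1.95 against 7.06 and 7.19 (2.03, SE 0.30, adjusted p = 0.00151). The subunits of one receptor thus moved in opposite directions, with no overlap. Cul2 itself was lower (-0.46, adjusted p = 0.032) and Elob, elongin B, was higher (0.48, adjusted p = 0.0268). At the 8-cell stage 0 were higher and 3 lower, where 5.06% of all genes passed at any fold, with Il6st past 2-fold (-1.47) at 15.3 and 14.2 against 6.49 and 4.10.

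In control embryos 21 of the 31 partner genes were called between the 2-cell and 4-cell stages, 11 higher and 10 lower. Of all genes, 45% were called in this comparison. Of the cullin-2 ligase core, Cul2 (1.27), Eloc (1.51) and Elob (1.15) rose, whereas Rbx1, its RING subunit, was lower at -0.41 (adjusted p = 0.02), under 2-fold. Cul5 (1.85) and Rnf7 (1.80), the scaffold and RING subunit of the related cullin-5 ligase, rose. The RNA of Uhrf1 fell by 1.83, from 100.3 and 95.6 normalised CPM to 26.4 and 28.6. PRAMEL7 acts on the UHRF1 protein, which was not measured here. Among the other genes of DNA methylation, Tet3 (-2.61) and Dnmt3l (-1.59) fell, and Tet1 (1.57) and Tet2 (1.49) rose. Dnmt3b was higher at 0.83 (adjusted p = 2.65e-05) and Dnmt1 lower at -0.44 (adjusted p = 7.94e-04), both under 2-fold, and Dnmt3a did not pass the test (-0.13). Of the LIF pathway, Il6st (-2.19), Lifr (-1.19) and Stat3 (-2.50) fell.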

How the data were processed

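Total RNA-seq was analysed in 12 libraries, and the 12 ATAC-seq samples were not analysed here. The authors aligned 150-base paired reads with STAR 2.5.3a to GRCm38, kept unique alignments, ran featureCounts over the genes of GENCODE and the families of RepeatMasker, and deposited raw counts for 56326 features (55291 genes and 1035 repeat families). From 71.8% to 74.7% of the genes with few counts (1 to 50) held an even count, so both mates were mostly counted, and the counts overstate the precision. There are no molecular identifiers, and floors (3 counts) cover counting error only.

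Counts were tested with edgeR 4.0.16 in R 4.3.3 (filterByExpr, TMM, robust quasi-likelihood test), MERVL-KD against control in the 4 libraries of each stage, and stage changes and interactions in one fit of 12 libraries with 6 groups. P-values were adjusted over all genes and repeat families by the Benjamini-Hochberg method. A call needed both a change of 2-fold or more and an adjusted p under 0.05, and interactions the adjusted p alone. Stage fits used their own TMM factors, so fold changes can differ slightly from ratios of the printed levels. The method was checked on simulated counts. Promoters came from RefSeq (GRCm38.p6) and were aligned to the MERVL consensus with BLAST 2.17.0 (E-value 1e-5). Oligonucleotide sites were exact matches on both strands.

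Alternatives were DESeq2 1.42.0, its size factors, library size alone, count filters, a replicate block, one fit of 12 libraries, halved counts, no fold threshold and each library left out. The members and lists were chosen with earlier results of these data known. Every member is reported, with levels per library for those of at least 1 CPM in a group. For each member called between MERVL-KD and control, the 3 genes most correlated over the 12 libraries are named. Genes of the family under other symbols are named when called.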

Additional observations from a re-analysis of the deposited data

Results flagged for a closer look

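The effect of the knockdown on Pramel4 differed between stages by an edgeR interaction test. From the 2-cell to the 4-cell stage it changed by -0.89 on the log2 scale, and from the 2-cell to the 8-cell stage by -0.70. MERVL-KD was above control in both 2-cell libraries and below it in both libraries at each later stage. Only 15.8% of the 150-base windows of the Pramel4 exons occur once in the genome, and Gm13102, which holds the others, changed by -1.30 from the 2-cell to the 4-cell stage and by -0.28 (adjusted p = 0.748) from the 2-cell to the 8-cell stage. The part that read placement between these copies had in the values was not tested.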

How the results depend on the processing

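No member reversed a called direction under any alternative. The count of members called between MERVL-KD and control at the 2-cell stage was 1, and 0 with library size alone or with 12 libraries in one fit, 6 without a fold threshold, and 0 to 1 with a library left out. That member, Pramel3, was lower under every alternative (log2 fold change -0.91 and adjusted p = 0.0168 by library size alone, -1.30 and 0.404 in the 12-library fit), and the cause was not tested. At the 4-cell stage the count was 0, with 2 without a fold threshold and 0 to 1 with a library left out, and at the 8-cell stage likewise 0, 2 and 0 to 1. The partner genes called went from 1 to 6 at the 2-cell stage, from 2 to 10 at the 4-cell stage and from 1 to 3 at the 8-cell stage without a fold threshold. From the 4-cell to the 8-cell stage of control embryos DESeq2 called 1 member instead of 0, and leaving out a library gave 0 to 2. The same stage change in MERVL-KD embryos gave 0 to 1 with a library left out. From the 2-cell to the 4-cell stage the count was 9 to 10 in control and 5 to 9 in MERVL-KD embryos with a library left out. The interaction between the 2-cell and 4-cell stages had 1 member, 2 with a filter of at least 1 count, and 0 to 2 with a library left out. Between the 2-cell and 8-cell stages it had 1, 2 by library size alone, and 0 to 2 with a library left out. A group with a lone library was taken to vary like the others. Replicate numbers did not pair the samples (correlation of same-numbered deviations -0.083, 0.009 and 0.027 over 14783 genes). With the replicate block, 1 member was called at the 2-cell stage, as without it, and Pramel6 (adjusted p = 0.0692) and Pramef25 (0.0615) no longer passed at any fold, while Pramel6 passed at the 4-cell stage (0.0307).
Members with few counts (Prame, Pramef12os, Pramel and, after the 2-cell stage, Pramef6, Pramef20, Pramef25 and Pramel3) had wide intervals between MERVL-KD and control. Some of them also differed severalfold between replicates, so small differences in these members were not detectable in these libraries.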
